A study of Homo sapiens with 19 samples.

Results

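The ERRα-binding sites of serum-starved, vehicle-treated SKBr3 cells were compared with those of BT-474 cells under the same treatment, to ask which baseline sites 2 HER2-positive breast cancer cell lines share and which are found in 1 line. A site was called shared where a peak of 1 list overlapped a peak of the other by at least 1 bp, and the peaks of both lists were then merged. Merging gave 49303 sites, of which 14389 were shared, 17211 were found in SKBr3 cells only and 17703 in BT-474 cells only. A separate merge of all 8 peak lists of the series gave 90452 sites.

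The series measured ERRα by chromatin immunoprecipitation and sequencing (ChIP-seq) in 19 samples, ChIP and input libraries together. Both groups used here were deprived of serum for 24 h and given PBS as vehicle before harvest, and neither received EGF or heregulin (HRG) or lapatinib. The SKBr3 list came from 2 ChIP libraries pooled by the authors against 1 input, and the BT-474 list from 1 ChIP library against 1 input. The EGF and HRG lists of BT-474 cells have no input of their own in the series and share this one. The other lists served to see where sites were called again and which stretches held peaks. They came from serum-starved, EGF- and HRG-treated cells of each line, from untreated parental SKBr3 cells (pSKBr3) and from lapatinib-resistant SKBr3 cells (LRSKBr3). LRSKBr3 cells were maintained in lapatinib, and no serum starvation is recorded for pSKBr3 or LRSKBr3 cells. With 1 list per line there was no spread between replicates and no test of the difference between lines. The 95% intervals given here are Wilson intervals that cover counting error only, and library depth is not known from lists without read counts.

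ERRα (ESRRA) is an orphan nuclear receptor that binds DNA without a known natural ligand, and with its PGC-1 coactivators it controls genes of mitochondrial respiration, the tricarboxylic acid (TCA) cycle and fatty acid oxidation. Its response element, the ERRE, is an AGGTCA word extended on its 5′ side to TCAAGGTCA, whereas the oestrogen receptor binds inverted repeats of AGGTCA (the oestrogen response element, ERE). Both lines carry amplified ERBB2, the gene of HER2. BT-474 cells are oestrogen receptor-positive and SKBr3 cells are not. GATA3 and FOXA1 are transcription factors of luminal breast cells that open chromatin around the oestrogen receptor's sites.

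The following stretches show the ERRE in the strongest peak of each class that held one, with ties at the score of 3100 settled by peak width. Stretches here and further on were picked from an incomplete set of chromosomes, and strongest holds for that set only. They were read from GRCh37 (the hg19 build) on the plus strand, with the word in capitals and 10 bases on either side. TGACCTTGA is TCAAGGTCA on the opposite strand.
SKBr3 only, chr16:19715961-19715989: gtagtgttgcTCAAGGTCAggagggattt
shared, strongest in SKBr3, chr21:35296424-35296452: tgcttagtgcTCAAGGTCAccgctctcag
BT-474 only, chr20:49051669-49051697: acctgctgtgTGACCTTGAagatgttcct
shared, strongest in BT-474, chr3:30946473-30946501: taagtaacagTGACCTTGAttgccctctg
The SKBr3-only stretch lies in an exon of KNOP1, within VPS35L, and its peak scored 3100. The BT-474-only stretch is intergenic, 75174 bp from the start of PTPN1, and its peak also scored 3100. The shared stretch on chromosome 21 is in the intron of a gene model without a symbol, and the shared stretch on chromosome 3 is intergenic, 10369 bp from the start of GADL1. The score is −10 log10 of the P value given by MACS, has a lowest value of 50 in these lists and depends on library depth, so that scores were not compared between the lists and genes bound in both lines are given by their percentile within each list.

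The gene of ERRα itself gave a shared site. The strongest ESRRA peak covered chr11:64071200-64074381 in SKBr3 cells and chr11:64070021-64074711 in BT-474 cells, at score percentiles of 98.6 and 98.3. Both peaks hold 4 copies of the shorter word AAGGTCA. Of these, 3 (here as TGACCTT) lie 23 bp apart, the last of them being a complete ERRE 619 bp from the start, and the remaining copy lies 70 bp from the start. The wider BT-474 peak holds 1 more. The 3 neighbouring copies are shown in capitals in the 75-bp stretch below.
ESRRA, chr11:64072294-64072368: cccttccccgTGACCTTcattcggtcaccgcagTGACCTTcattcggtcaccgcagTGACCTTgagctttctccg

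Fewer than 1 in 2 peaks of either line were shared. Of 32183 SKBr3 peaks, 14972 (46.5%, 46.0–47.1) overlapped a BT-474 peak, and of 32259 BT-474 peaks, 14556 (45.1%, 44.6–45.7) overlapped an SKBr3 peak. Counted as merged sites, 29.2% (28.8–29.6) were shared, 34.9% (34.5–35.3) were SKBr3-only and 35.9% (35.5–36.3) were BT-474-only. BT-474 peaks were wider, with a median of 2012 bp against 1405 bp in SKBr3 cells, and covered 76.4 Mb against 58.1 Mb. With peaks cut to 200 bp around their centres the shares were 28.4 and 28.3%.

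Strong peaks were shared far more often than weak ones in both lines. In SKBr3 cells the shared peaks had a median score percentile of 68.4 and the SKBr3-only peaks one of 36.3, and in BT-474 cells the medians were 65.9 and 38.1. From the lowest to the highest score quartile the percentage shared went from 24.0 through 33.8 and 50.7 to 77.6 in SKBr3 cells. The same quartiles in BT-474 cells were shared at 26.1, 35.2, 48.1 and 71.1%. Among peaks scoring 3100 or more, 95% of 827 were shared in SKBr3 cells (93.3–96.3) and 89.8% of 1040 in BT-474 cells (87.8–91.5).

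**Figure D1:**
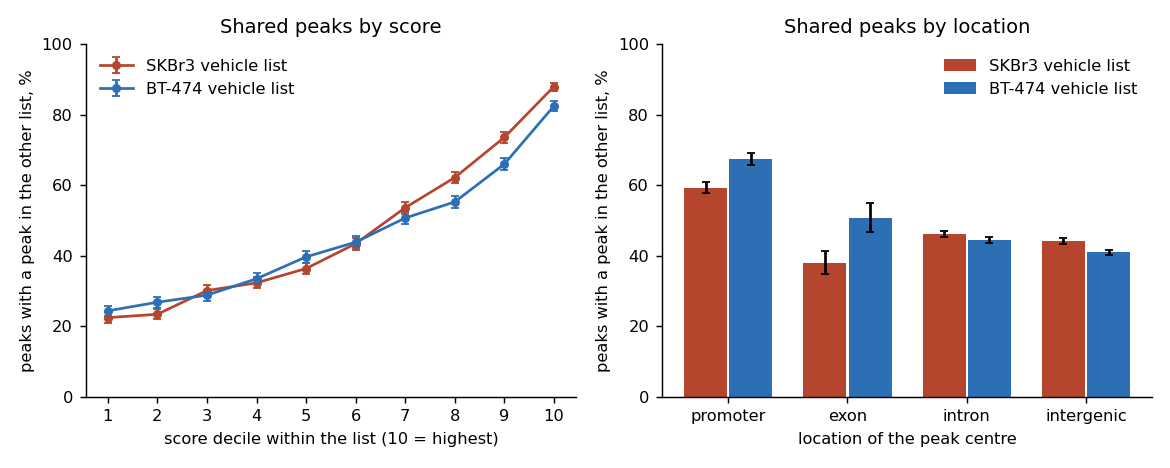
Percentage of peaks shared with the other line (vertical axes) by score decile within the list (left) and by location (right), for SKBr3 and BT-474 vehicle peaks, with 95% Wilson intervals as bars. The share rises from 22.4 to 87.9% over the SKBr3 deciles and from 24.4 to 82.4% over the BT-474 deciles.

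A shared site was not always strong in both lines. Over the 14389 shared sites the scores of the 2 lists had a Spearman correlation of 0.45, given as a description over sites that are not independent replicates and that share 1 pair of lists. Of these sites, 3660 (25.4%) were in the top score quartile of both lists, 1124 were in the top quartile of SKBr3 cells and below the median of BT-474 cells, and 919 were the reverse. The centres of the 13733 sites that joined 1 peak of each list were a median of 114 bp apart, and 84.9% were within 500 bp.

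Among the strongest shared sites was the promoter of CISD1, a gene for an iron-sulphur protein of the mitochondrial outer membrane, at chr10:60027544-60030858 in SKBr3 cells. Others were the promoter of GPBP1L1 and TMEM69 on chromosome 1 and introns of TNS3 on chromosome 7 and of APOLD1 and the glucose transporter gene SLC2A14 on chromosome 12. These sites and CISD1 were called in all 8 lists. In all, 6449 shared sites (44.8%) were called in every list, and 1077 of them (16.7%) were promoter sites.

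The strongest SKBr3-only site was the promoter of UCP2, an uncoupling protein of the inner mitochondrial membrane, at chr11:73690730-73693580, with a score of 3200.06. It was also called in all 6 other lists, EGF- and HRG-treated BT-474 cells included, so that its absence from BT-474 cells held only for the vehicle list. The next named, in an intron of GYPC, 53918 bp from KLF13, in an exon of HEMK1 and in an intron of SCIN, were called in all 4 other SKBr3-derived lists and in no BT-474 list. The SCIN site was chosen by its width among sites tied at 3100, with 41 SKBr3-only sites at or above that score. The strongest BT-474-only sites were in an intron of RNF157 at chr17:74169023-74171360 (score 3207.32), 315789 bp from TBX3, 11372 bp from CLDN8, 135449 bp from HAS2 and 398209 bp from PEX2. Those near TBX3 and CLDN8 were also called in EGF-treated SKBr3 cells, and the other 3 in no SKBr3-derived list. The site near HAS2 lies in an 11-Mb stretch of chromosome 8 without any SKBr3 vehicle peak, given below. The site near PEX2 was chosen in the same way, with 106 BT-474-only sites at 3100 or above. All 5 were called in both other BT-474 lists, and those near RNF157, TBX3, CLDN8 and PEX2 held the GATA word AGATAA described further on.

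Shared sites lay at promoters more often than sites of 1 line. A promoter, within 1 kb of the start of a gene, held 14.6% (14.0–15.2) of the shared sites, 8.75% (8.34–9.18) of the SKBr3-only sites and 5.71% (5.38–6.06) of the BT-474-only sites. Introns held 42.2, 42.9 and 43.8% of the 3 classes and intergenic DNA 41.2, 45.2 and 48.9%. The median distance to the nearest start was 24768 bp for shared sites, 42329 bp for SKBr3-only sites and 44514 bp for BT-474-only sites. In these lists SKBr3-only sites were therefore more often at promoters than BT-474-only sites. The intervals cover counting error only, and a difference between the lines was not tested.

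Promoter peaks were shared more often than intronic and intergenic peaks in each score quartile of both lines. In the lowest BT-474 quartile 44.8% of promoter peaks were shared against 24.2% of the others, and in the highest quartile 89.7 against 68.9%. In SKBr3 cells the same shares were 30.8 against 23.6% in the lowest quartile and 87.1 against 76.2% in the highest. Over all scores, 59.3% (57.7–60.8) of 3697 SKBr3 promoter peaks and 67.5% (65.8–69.1) of 3108 BT-474 promoter peaks were shared.

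Base composition moved with these classes. The 201 bp around the peak centre had a mean GC content of 45.0% in SKBr3-only and 40.3% in BT-474-only peaks, against 46.7 and 45.6% in the shared peaks of the 2 lists (SD over peaks, 8.43 to 9.49). Among promoter peaks the difference was 57.2% in SKBr3-only against 48.4% in BT-474-only peaks. Its part in the location result was not tested.

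The line-only sites of the 2 lines were spread over the chromosomes in different proportions. SKBr3-only sites were dense on chromosome 7, with 2576 sites (15.0% of the class, 16.2 per Mb) against 1179 BT-474-only sites (7.41 per Mb), on chromosome 1 with 2332 against 1174 and on chromosome 20 with 673 against 340. BT-474-only sites were more numerous on chromosome 8, with 1243 against 465 SKBr3-only sites, and on chromosome 18 with 668 against 117. The same held on chromosome X with 545 against 233, on chromosome 12 with 997 against 539 and on chromosome 4 with 1095 against 558. On chromosome 9 the counts were close, 542 against 527. The number of copies of each chromosome in these lines is not in the files, and copy number and ERRα binding cannot be told apart in these counts.

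**Figure D2:**
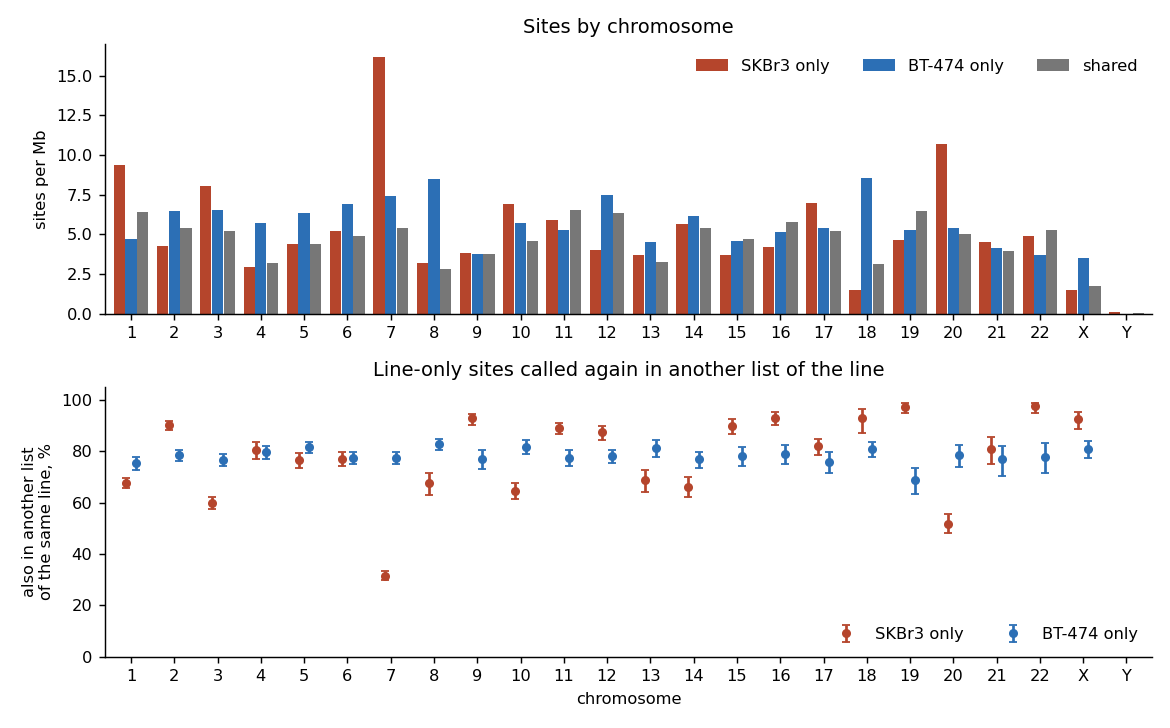
Upper plot, merged sites per Mb on each chromosome for shared, SKBr3-only and BT-474-only sites. Lower plot, percentage of line-only sites called again in at least 1 other list of the same line, for chromosomes with at least 100 sites of the class. SKBr3-only sites on chromosome 7 are the densest (16.2 per Mb) and are called again least often (31.6%).

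Most line-only sites were called again in the same line. Of the SKBr3-only sites, 69.0% (11869) were called in at least 1 of 4 other SKBr3-derived lists, and of the BT-474-only sites, 78.6% (13913) in at least 1 of 2 other BT-474 lists. The number of lists differed and the BT-474 lists share 1 input, so that these percentages were not compared between lines. BT-474-only sites were called again at 68.8% (chromosome 19) to 82.9% (chromosome 8) on the plotted chromosomes. SKBr3-only sites ranged more widely, from 31.6% (29.8–33.4) on chromosome 7 and 51.9% on chromosome 20 to 97.5% on chromosome 19 and 97.6% on chromosome 22.

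The SKBr3-only sites of chromosome 7 also differed from the rest of their class in other measures. Their peaks had a median score percentile of 27.9 against 38 elsewhere, a median width of 1682.5 bp against 1293 bp, a mean GC content of 38.9 against 46.1%, and lay at promoters in 2.99 against 9.76% of cases. The ERRE was found in 2.14% (1.64–2.77) of them against 6.71% elsewhere. EGF-treated SKBr3 cells held 26.6% of them against 58.9% of the SKBr3-only sites elsewhere, and LRSKBr3 cells 15.2 against 59.2%.

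The counts of line-only sites varied along the chromosomes. In 597 windows of 5 Mb the median was 20 SKBr3-only and 30 BT-474-only sites, and the 20 fullest windows of each class held 18.0% of the SKBr3-only and 7.95% of the BT-474-only sites. The window chr3:5000001-10000000 held 302 SKBr3-only sites against 31 BT-474-only and 42 shared sites, and chr7:10000001-15000000 held 238, 16 and 46. Of the BT-474-only windows, chr8:125000001-130000000 held 103 BT-474-only against 6 SKBr3-only sites, and chr8:120000001-125000000 held 95 against 0.

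Line-only sites lay nearer to sites of their own class than to shared sites. SKBr3-only sites were a median of 19203 bp from the next SKBr3-only site and 47559 bp from the nearest shared site, and BT-474-only sites 33757 and 68477 bp. Another site of the same class lay within 10 kb for 35.5% of the SKBr3-only and 21.7% of the BT-474-only sites.

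Whole stretches lacked peaks of 1 line. No SKBr3 vehicle peak lay in the 11 Mb of chr8:115652655-126655025, where the BT-474 vehicle list held 226 peaks and the EGF and HRG lists of BT-474 cells 209 and 309. The other SKBr3-derived lists held 1 (EGF), 4 (HRG), 5 (pSKBr3) and 23 (LRSKBr3) peaks there. Another stretch, the 6.18 Mb of chr18:34437527-40614327, held 47 BT-474 vehicle peaks and 0, 2, 0 and 0 in the other SKBr3-derived lists. In the opposite direction, the 0.550 Mb of chr3:7511358-8060874 held 71 SKBr3 vehicle peaks and none of BT-474 vehicle cells, but only 18, 6, 8 and 2 in the EGF, HRG, pSKBr3 and LRSKBr3 lists, with 1 and 2 in the EGF and HRG lists of BT-474 cells. The SKBr3 stretch at chr7:9128182-9998517 held 59 vehicle peaks and 19, 10, 3 and 0 in the same lists, with 8 in each of the EGF and HRG lists of BT-474 cells.

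ERBB2, at chr17:37844167-37886679, held no peak in any of the 8 lists. The nearest peaks on either side were 1627 kb apart in the SKBr3 vehicle list and 1842 kb apart in the BT-474 vehicle list. All 19 genes listed for the ERBB2 amplicon lacked a peak within 20 kb in both vehicle lists, and only LRSKBr3 cells had peaks near any of them (NEUROD2, PPP1R1B, CSF3 and MED24). Among all protein-coding genes 37.4% lacked a peak in both vehicle lists, and these 19 are neighbours that share 1 stretch, not independent cases. The copies of this region that each line carries are not in the files.

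CDH1, which encodes the epithelial adhesion protein E-cadherin, lay in a stretch of chromosome 16 without SKBr3-derived peaks. The gene, at chr16:68771195-68869440, held no peak in any of the 5 SKBr3-derived lists, and the 423 kb of chr16:68563331-68985939 without any of their peaks held 12 BT-474 vehicle, 9 EGF and 14 HRG peaks. The strongest of the 5 BT-474 vehicle peaks near CDH1 lay 2663 bp from a start of the gene, at chr16:68767474-68769590.

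Over all locations, line-only sites were called less often in the other line's lists than in those of their own. SKBr3-only sites were called in 54.0% of cases in EGF-treated, 41.9% in HRG-treated, 31.4% in pSKBr3 and 52.6% in LRSKBr3 cells of their own line, and in 4.57% of cases in EGF-treated and 14.7% in HRG-treated BT-474 cells. BT-474-only sites were called in 53.1 and 74.6% of cases in EGF- and HRG-treated BT-474 cells, and in 13% of cases in EGF-treated SKBr3 cells, 16.5% in HRG-treated SKBr3 cells, 8.07% in pSKBr3 and 19.7% in LRSKBr3 cells. Shared sites were called in 67.0 to 89.2% of cases in each of the 6 other lists. Altogether, 14390 SKBr3-only sites had no peak in any BT-474 list and 12309 BT-474-only sites had none in any SKBr3-derived list. BT-474-only promoters were an exception, called at 16.3% in EGF-treated SKBr3, 42.5% in HRG-treated SKBr3, 33.1% in pSKBr3 and 52.1% in LRSKBr3 cells against 33.3 and 55.2% in EGF- and HRG-treated BT-474 cells. SKBr3-only promoters were called at 61.8 to 88.6% in the other SKBr3-derived lists and at 2.92 and 10.8% in the other BT-474 lists.

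Fixed words were counted in the 201 bp around each peak centre, on both strands, and in flanks 2 kb to either side. The ERRE (TCAAGGTCA) was found in 9.04% (8.59–9.51) of the shared SKBr3 peaks and 8.52% (8.08–8.98) of the shared BT-474 peaks. It was found in 6.03% (5.68–6.39) of the SKBr3-only and 4.67% (4.37–4.99) of the BT-474-only peaks. The order of the lines rests on the window, since within 250 bp of the centre the shares were 8.44 and 7.69%, and over whole peaks, which are wider in BT-474 cells, they were 12 and 12.5%. The flanks held it in 0.254 to 0.384% of cases and 0.122% of all transcription starts held it in a window of this length. The order of the 4 groups was the same for the shorter AAGGTCA, which holds fewer letters of the ERRE, at 28.6, 26.8, 22.2 and 17.4%, against 2.18% of all starts. These words overlap, since every ERRE also holds AAGGTCA and AGGTCA.

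The ERRE was rarer at promoters than elsewhere in each class. It was found in 3.83% of shared SKBr3 promoter peaks and 9.93% of the others, in 1.46 and 6.46% of SKBr3-only peaks, and in 2.57 and 4.80% of BT-474-only peaks. It did not rise steadily over the score quartiles of any class. Shared SKBr3 peaks held it in 9.32, 9.96, 9.13 and 8.49% of cases from the lowest to the highest quartile and SKBr3-only peaks in 5.96, 6.01, 6.40 and 5.49%. BT-474-only peaks held it in 4.83, 5.62, 3.39 and 4.42% and shared BT-474 peaks in 9.65, 9.21, 8.06 and 8.07%. Among the forms that differ from it in the second base, TGAAGGTCA came next in each group (1.80 to 2.91%).

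The GATA word AGATAA differed between the sites of the 2 lines. It was found in 21.4% (20.8–22) of the BT-474-only peaks and in 12.6% (12.1–13.1) of the SKBr3-only peaks, against 12.4% of the shared SKBr3 and 13.5% of the shared BT-474 peaks. Its flanks held it in 14.8% of BT-474-only and 14.0% of SKBr3-only cases, so that, over all GC levels, the centres were above their flanks in BT-474-only peaks and below them in SKBr3-only peaks. Among all starts 4.62% held it. The word for FOX factors, TGTTTAC, followed the same order, with 8.33% (7.93–8.74) of the BT-474-only and 4.29% (4–4.60) of the SKBr3-only peaks against 3.22 and 3.04% of their flanks and 1.63% of all starts. Both words stood in the same window in 392 BT-474-only peaks (2.21%) and 80 SKBr3-only peaks (0.465%).

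The strongest BT-474-only site shows the GATA word in an intron of RNF157, and the next stretches show the strongest FOX word of BT-474-only peaks, in an intron of ST7, and the strongest GATA word of SKBr3-only peaks, in the promoter of RTKN. The peaks at ST7 and RTKN were tied with others at 3100 and were chosen by width, within the incomplete set of chromosomes given above. TTATCT is AGATAA on the opposite strand.
BT-474 only, GATA, chr17:74170082-74170107: agagccagatTTATCTtctttttcca
BT-474 only, FOX, chr7:116763845-116763871: aggtttgcagTGTTTACcttcttcagg
SKBr3 only, GATA, chr2:74668606-74668631: aggctcaggcAGATAAtcctaaccag

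**Figure D3:**
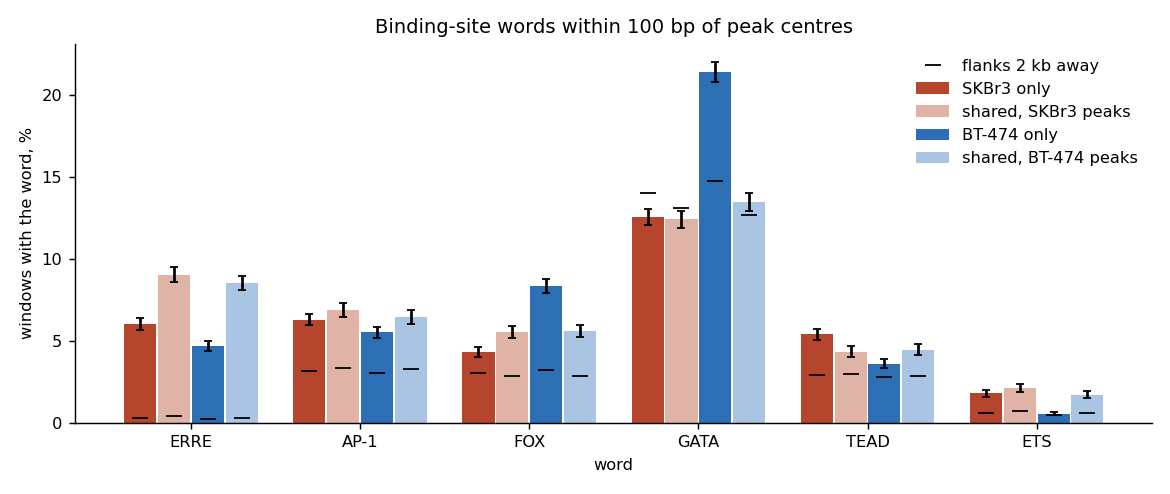
Percentage of peaks with each of 6 words within 100 bp of the centre, in SKBr3-only, shared SKBr3, BT-474-only and shared BT-474 peaks, with 95% Wilson intervals as bars and black ticks for the flanks 2 kb away. The ERRE is higher in shared than in line-only peaks, and the GATA and FOX words are highest in BT-474-only peaks (21.4 and 8.33%).

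GC content moved with the GATA word, and BT-474-only peaks held it more often than SKBr3-only peaks in each GC tertile. From the lowest to the highest GC tertile, with bounds at 39.3 and 47.3% GC, the word was found in 27.2, 19.2 and 8.97% of the BT-474-only peaks and in 20.7, 12.9 and 5.46% of the SKBr3-only peaks. The flanks held it in 16.7, 14.2 and 10.3% of BT-474-only and 17.2, 14.8 and 10.7% of SKBr3-only cases. In the lowest tertile the centres of both classes were thus above their flanks, and in the highest both were below them. Tertiles were set by the GC of the centres and flanks were not matched for GC, so the split itself can shift centres against flanks. FOX words were found in 10.2, 7.72 and 4.02% of the BT-474-only and 5.03, 5.33 and 2.72% of the SKBr3-only peaks. The GATA share also stayed between 20.8 and 22.8% over the score quartiles of BT-474-only peaks, while SKBr3-only peaks went from 13.5 to 10.4%.

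The GATA share was alike with and without an ERRE in the window. BT-474-only peaks with and without an ERRE held it in 20.9 and 21.4% of cases, and SKBr3-only peaks in 12.3 and 12.6%. BT-474-only sites called in both other BT-474 lists held it in 23% of cases and those called in neither in 18.5%. In SKBr3-only peaks the order was the opposite, with 7.80% in sites called in all 4 other lists and 16.7% in sites called in none, and the ERRE went from 2.43% in none to 7.91% in all 4. In BT-474-only peaks the ERRE went from 3.14% in neither to 5.26% in both.

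**Figure D4:**
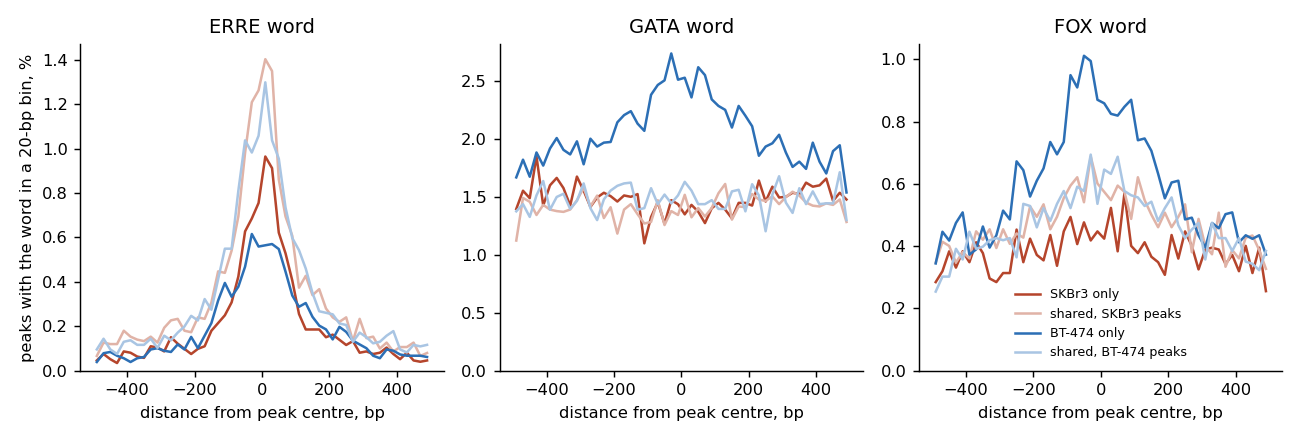
Percentage of peaks with the ERRE, GATA and FOX words in each 20-bp bin from 500 bp before to 500 bp after the peak centre, for the 4 groups of peaks. The ERRE peaks at the centre in all 4 groups, and the GATA and FOX words rise highest there in BT-474-only peaks.

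Other words were also counted. AP-1 words (TGACTCA or TGAGTCA) were found in 5.52% of the BT-474-only and 6.29% of the SKBr3-only peaks, and in 6.44 and 6.87% of the shared peaks of the 2 lists, against 3.01 to 3.32% of the flanks and 2.46% of all starts. The TEAD word GGAATGT was found in 5.39% of the SKBr3-only and 3.62% of the BT-474-only peaks, against 2.89 and 2.78% of their flanks and 1.71% of all starts. The ETS word CCGGAAG was found in 1.79% of the SKBr3-only and 0.559% of the BT-474-only peaks, against 0.587 and 0.477% of their flanks and 9.45% of all starts. It was found beside a higher GC content and more promoters in SKBr3-only peaks. At promoters it was in 11.4% of SKBr3-only and 2.97% of BT-474-only peaks, and elsewhere in 0.866 and 0.413%. From the lowest GC tertile up it was in 0.231, 0.486 and 4.28% of SKBr3-only peaks. The same tertiles of BT-474-only peaks held it in 0.121, 0.480 and 1.92%. The part of GC content and promoters in the ETS difference was not tested. The TFAP2 word GCCNNNGGC, for factors of luminal breast cells, was found in 7.47% of the SKBr3-only, 5.13% of the BT-474-only and 9.02 and 8.37% of the shared peaks, above flanks of 3.20 to 4.54%, and in 19.7% of all starts. By GC tertile, lowest first, SKBr3-only peaks held it in 1.56, 5.15 and 14.5% of cases. BT-474-only peaks held it in 2.09, 6.13 and 12%. SKBr3-only peaks were thus higher in the highest tertile only, and the part of GC content in the TFAP2 difference was not tested. The RUNX word TGTGGTT was at 4.53% (4.23–4.85) in BT-474-only and 3.81% (3.53–4.10) in SKBr3-only peaks, against 3.58 and 3.69% of their flanks and 2.32% of all starts. A match of letters is not a bound site, and the factors named by these words were not measured.

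Complete EREs (AGGTCA, 3 bases, TGACCT) were rare in all groups. They were found in 7 of the SKBr3-only peaks, 21 of the BT-474-only peaks, 23 of the shared SKBr3 and 17 of the shared BT-474 peaks, and in none of the 78564 start windows. Within the incomplete set of chromosomes given above, the strongest BT-474-only peak that held one was in an intron of RAI2, at a score percentile of 79.3. The strongest such SKBr3-only peak was 18353 bp from the start of THNSL2, at a percentile of 71.3.
BT-474 only, ERE, chrX:17844013-17844047: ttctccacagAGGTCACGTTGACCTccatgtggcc
SKBr3 only, ERE, chr2:88491061-88491095: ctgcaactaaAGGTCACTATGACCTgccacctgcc

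Within 20 kb of a start, a distance the study used, 7309 of 19794 protein-coding genes (36.9%) had a peak in both lists, 2685 (13.6%) in SKBr3 cells alone and 2405 (12.2%) in BT-474 cells alone. A further 7395 (37.4%) had none. Of the genes with peaks in both lists, 690 had no shared site. The genes with the most line-only peaks were GRM7 (18), CREB5 (15), TP63 (12), HDAC9 (11) and LASP1 (10) for SKBr3 cells, where 7 genes had 10 or more. Of these peaks, those of GRM7, CREB5 and HDAC9 were called in another SKBr3-derived list 7, 4 and 3 times those of TP63 8 times and those of LASP1 all 10 times. For BT-474 cells the genes were MACF1 (10), NEDD4L and PDE4D (9 each), MAST4 (8) and DGLUCY (7), where 10 genes had 7 or more. Of these BT-474-only peaks, 5 of MACF1, 9 of NEDD4L, 8 of PDE4D, 4 of MAST4 and 5 of DGLUCY were called in another BT-474 list. The SKBr3 list held 3, 9, 9, 4 and 1 peaks near these 5 genes, whereas the BT-474 list held 3 near CREB5 and 0 near GRM7, TP63, HDAC9 and LASP1. LASP1 lies in the 1842-kb stretch around ERBB2 without BT-474 vehicle peaks, and GRM7 overlaps the 0.550-Mb stretch of chromosome 3 without them. The 13 lists of genes used next are described by their counts beside these percentages and without a test.

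Genes of oxidative phosphorylation, the mitochondrial chain that makes ATP, had a peak in both lines in 70 of 87 cases (80.5%, 70.9–87.4), against 36.9% of all genes, and 69 of the 70 had a shared site. CYCS, which encodes cytochrome c, had a shared promoter peak at a score percentile of 99.9 within the SKBr3 list and 93.8 within the BT-474 list. COX5A, a subunit of cytochrome c oxidase, was at 94.7 and 93.9, and ATP5F1B, the β subunit of ATP synthase, at 98.6 and 98.3. A further 10 genes had a peak in SKBr3 cells alone, namely NDUFA7, NDUFA8, NDUFA10, NDUFA11, NDUFA13, NDUFAB1 and NDUFV3 of complex I, UQCR11 of complex III, and ATP5MC1 and ATP5ME of ATP synthase. In 9 of the 10 the strongest peak lay within 1 kb of the gene's own start. Of these 10, 9 had a peak in all 4 other SKBr3-derived lists, and 8 in neither other BT-474 list. Their scores ranged from 98.37 for NDUFA7 to 1059.63 for ATP5MC1. BT-474 cells alone had peaks at NDUFA5 and NDUFB9 of complex I, of which NDUFA5 also had a peak in pSKBr3 cells. NDUFB9, at chr8:125549778-125553347 with a score of 3100, lies inside the 11-Mb stretch without SKBr3 vehicle peaks.

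Genes of the TCA cycle and pyruvate entry had 24 of 31 (77.4%) bound in both lines. IDH3A, which encodes a subunit of isocitrate dehydrogenase, and CS, which encodes citrate synthase, were at 98.6 in the SKBr3 list and 98.3 in the BT-474 list. SKBr3 cells alone had peaks at IDH3G, DLST, PDHB and PDK1, of which PDK1, the kinase that inhibits pyruvate dehydrogenase, was near the lower limit of the list at 51.88. BT-474 cells alone had peaks near PDP1, the matching phosphatase, which had a peak in HRG-treated SKBr3 cells as well. Fatty acid oxidation had 16 of 26 (61.5%) in both, among them CPT1A, the carnitine palmitoyltransferase that controls entry of fatty acids into mitochondria. SKBr3 cells alone had peaks near CPT1B and ECHS1 and BT-474 cells alone near DECR1, ACAA1, ACSL4, ETFA and ETFB. ACAA1, ETFA and ETFB also had peaks in other SKBr3-derived lists, and CPT1B in HRG-treated BT-474 cells. DECR1, at the promoter and with a score of 2021.72, had the strongest of them. It is on chromosome 8, as are PDP1 and NDUFB9.

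**Figure D5:**
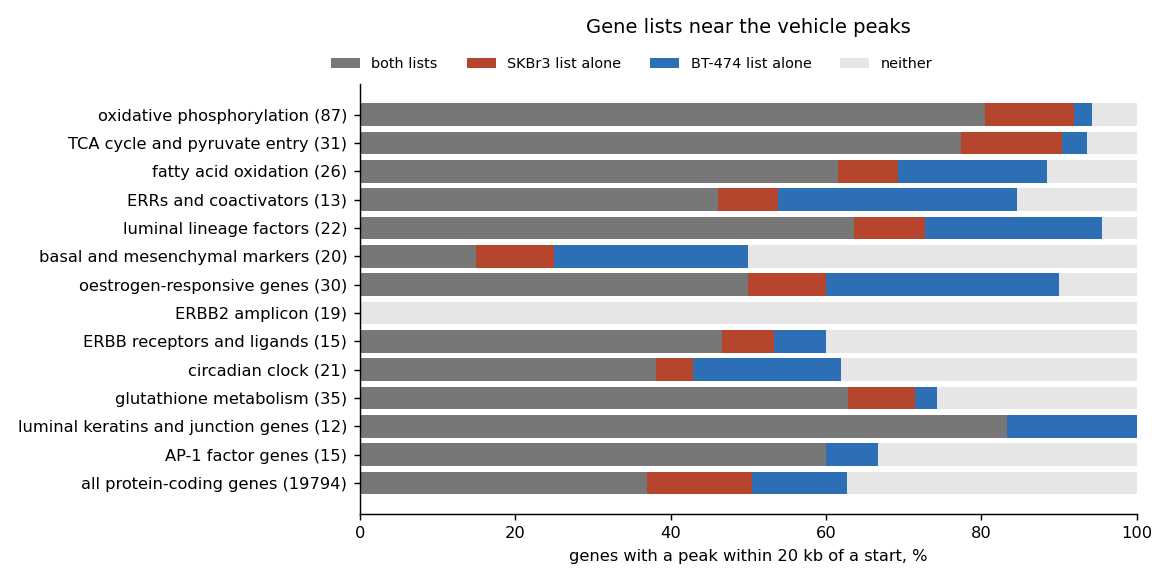
Percentage of the genes of each of 13 lists, and of all 19794 protein-coding genes, with a peak within 20 kb of a start in both lines, in SKBr3 cells alone, in BT-474 cells alone or in neither. Oxidative phosphorylation (80.5% in both) and luminal keratins and junction genes (83.3%) lie well above the 36.9% of all genes, and the ERBB2 amplicon is at 0%.

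Of 13 genes for the ERRs and their cofactors, 6 (46.2%, 23.2–70.9) were bound in both lines, against 36.9% of all genes. Among them were ESRRA, ESRRG and the coactivator gene PPARGC1B. PPARGC1B had 6 SKBr3 and 5 BT-474 peaks within range. PPRC1, a PGC-1-related coactivator, had an SKBr3 peak alone, and ESRRB, NCOA1, NCOA2 and NCOR1 had BT-474 peaks alone. All 4 of the latter had a peak in at least 1 other SKBr3-derived list. PPARGC1A, which encodes PGC-1α, had none in either vehicle list.

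Among 22 luminal lineage factors, 14 (63.6%) were bound in both lines, FOXA1 and XBP1 included. FOXA1 had shared peaks at score percentiles of 83.1 in SKBr3 and 92.8 in BT-474 cells. BT-474 cells alone had peaks near ESR1, the gene of oestrogen receptor α, GATA3, TBX3, TFAP2B and TRPS1, and all 5 also had a peak in both other BT-474 lists. All of them but TRPS1, which is on chromosome 8, also had a peak in at least 1 other SKBr3-derived list. The GATA3 peak was at the promoter, chr10:8086680-8088565, at a percentile of 40.3, and the ESR1 peak was at the promoter at 44.7. SKBr3 cells alone had peaks near PGR, the progesterone receptor gene, and ZNF217, and the PGR peak had a percentile of 27.1. Of 20 basal and mesenchymal markers 3 (15.0%) were bound in both lines, against 36.9% of all genes. A further 2 were bound in SKBr3 cells alone (TP63, TWIST1) and 5 in BT-474 cells alone (ACTA2, CDH2, CDH3, KRT6B, SNAI1). TP63 and TWIST1 each had a peak in at least 1 other BT-474 list and in fewer than 4 of the other SKBr3-derived lists, and CDH2, KRT6B and SNAI1 had peaks in other SKBr3-derived lists. The strongest CDH3 peak lies in the same 423-kb stretch as CDH1.

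Of 30 oestrogen-responsive genes, 15 (50%) were bound in both, 3 in SKBr3 cells alone (CELSR2, KCNK5, PGR, of which KCNK5 had a peak in HRG-treated BT-474 cells) and 9 in BT-474 cells alone, against 13.6 and 12.2% of all genes. Those 9 were ADCY9, AGR3, IGFBP4, RAPGEFL1, RARA, SIAH2, STC2, TFF1 and TFF3, of which 3 had a peak in both other BT-474 lists and 3 in neither. Of the 9, 6 (TFF1, TFF3, IGFBP4, AGR3, RARA and ADCY9) had a peak in at least 1 other SKBr3-derived list. The peaks of IGFBP4, RAPGEFL1 and the strongest of RARA lie in the 1627-kb stretch around ERBB2 without SKBr3 vehicle peaks, so that these 3 genes are not separate cases. TFF1, a secreted trefoil protein gene, had its strongest BT-474 peak at chr21:43785729-43787996, 218 bp from its start, with a score of 1041.09. GREB1 had 2 SKBr3 peaks, of which the strongest was at a percentile of 49.4, and 7 BT-474 peaks, of which the strongest was at 94.3. The list was chosen from general knowledge of oestrogen action, and expression was not measured here.

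The 15 ERBB receptor and ligand genes had 7 (46.7%, 24.8–69.9) in both lines, against 36.9% of all genes. ERBB3 was at percentiles of 99.98 in the SKBr3 and 98.3 in the BT-474 list at a shared promoter. HBEGF was bound in SKBr3 cells alone, at a percentile of 2.02, and had peaks in the other SKBr3-derived lists except pSKBr3. NRG3 was bound in BT-474 cells alone under vehicle, at 98.3, but also had peaks in EGF-treated SKBr3, pSKBr3 and LRSKBr3 cells. EGFR had 6 SKBr3 peaks and 1 BT-474 peak with none shared. Of 21 measured clock genes, 8 (38.1%) were bound in both lines, NPAS2 in SKBr3 cells alone and BMAL2, NR1D1, NR1D2 and PER2 in BT-474 cells alone, with NR1D1, a repressor of the clock, at a percentile of 95.1. The strongest NR1D1 peak also lies in the stretch around ERBB2 without SKBr3 vehicle peaks. NR1D2 and PER2 had a peak in neither other BT-474 list and in at least 1 other SKBr3-derived list. Glutathione genes had 22 of 35 (62.9%) in both, GPX3, GPX4 and GPX8 in SKBr3 cells alone (GPX8 with peaks in both other BT-474 lists) and GSTA2 in BT-474 cells alone. Luminal keratin and junction genes had 10 of 12 (83.3%) in both, KRT8 with 6 SKBr3 and 8 BT-474 peaks, and CDH1 and CLDN3 in BT-474 cells alone, of which CLDN3 but not CDH1 had peaks in HRG-treated SKBr3, pSKBr3 and LRSKBr3 cells. AP-1 factor genes had 9 of 15 (60%, 35.7–80.2) in both, against 36.9% of all genes. FOSL2 was among them with a promoter peak at percentiles of 99.9 in the SKBr3 and 96.7 in the BT-474 list. MAF was bound in BT-474 cells alone.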

How the data were processed

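Per the study's methods and the submitters' processing notes, reads were aligned to hg19 with BWA 0.5.9, handled with SAMtools 0.1.18, and peaks were called with MACS at a P cutoff of 1e-05. The authors deposited 1 peak list per condition, with a score per peak (−10 log10 of the P value) and no read counts. The headers of the SKBr3 files name FindPeaks while the peaks carry MACS names, which was not resolved here.

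Peaks were placed in sites with at least 1 bp of overlap. Starts came from GENCODE v44lift37, with 19794 protein-coding genes, promoters within 1 kb and genes within 20 kb. Fixed words, 19 in all, were sought in 201 bp around each centre. Wilson intervals (95%) cover counting error only. No column of per-sample values was left unused. Sequence was read with pysam 0.24.0 and the tables were made with pandas 2.3.3 under Python 3.11.15, intervals with scipy 1.17.1, and the counting steps were tested on simulated peaks.

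The members, gene lists and words were chosen with earlier results of these data known. Named were the 5 strongest sites of each class, the 5 genes with most line-only sites in each line, list members with peaks in 1 line, ESRRA, TFF1 and ERBB2. Genes bound in both lines that are given as examples, the CDH1 stretch and the windows and empty stretches were chosen after their values were seen. No statistical test across lines was made, because each line has 1 list. Some items are not reported here.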

Additional observations from a re-analysis of the deposited data

How the results depend on the processing

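Of 72 alternative values for 17 results, 30 stayed within 1.5 times a count or within the interval of a percentage and 42 moved. In 1 setting given below, the whole peak, the order of the lines turned for the ERRE. It also turned for line-only sites without a peak in any list of the other line (14390 SKBr3-only and 12309 BT-474-only). The same held for genes with a peak of 1 line alone within 50 kb (2329 for SKBr3 and 2449 for BT-474). No paired analysis was possible because the deposited lists pool replicates or hold 1 library, and no replicate could be left out for the same reason. The percentage of peaks shared was 46.5 in SKBr3 and 45.1 in BT-474 cells, and became 48.6 and 44.5 with scores of at least 80, 49.5 and 44.2 with at least 100, 36.2 and 36.1 with an overlap of 50% of both peaks, 36.9 and 36.8 with centres within 500 bp, 20 and 20 with centres within 100 bp, and 28.4 and 28.3 with peaks cut to 200 bp. With promoters set at 2.5 kb they held 20.1, 13 and 9.97% of the shared, SKBr3-only and BT-474-only sites, and with scores of at least 100 they held 15.3% of the shared and 11.1% of the SKBr3-only sites. Without chromosome 7, 9.76% of the SKBr3-only sites were at promoters, and the ERRE and GATA words were in 6.71 and 11.8% of the SKBr3-only peaks. In windows of 250 bp to either side the ERRE was in 8.44% of SKBr3-only and 7.69% of BT-474-only peaks and the GATA word in 28.7 and 42%. Over whole peaks the ERRE was in 12 and 12.5%, which turns the order of the lines (BT-474 peaks are wider), and the GATA word in 63.3 and 81.7%. The shorter AAGGTCA was in 22.2 and 17.4%. With scores of at least 100 the ERRE was in 6.79 and 5.05% and the GATA word in 11.9 and 20.7%, and chromosome 7 held 10.5% of the SKBr3-only sites in place of 15.0%. Genes with a peak of both lists within 50 kb numbered 11261. For line-only sites called again in the same line, a choice made after seeing the data, promoters held 11.9% (SKBr3) and 4.34% (BT-474), the ERRE was in 7.64 and 5.09% and the GATA word in 10.7 and 22.2%. The cause of these shifts was not tested. The lists give no read depth, so that absence from a list was read only as no peak at its P cutoff.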
